A study of Mus musculus with 6 samples.

Results

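Genes of cellular iron uptake, storage and export were followed in CD4+ T cell samples from mice with and without CBS. The part comprised the probe sets, groups of short probes on an Affymetrix array, that the array's gene table assigns to exactly 1 of 10 listed genes. Of 34760 probe sets, 9 met this rule, 1 each for Tfrc, Slc11a2, Steap3, Slc25a37, Fth1, Ftl1, Slc40a1, Ireb2 and Aco1, while Slc11a1, an iron transporter of macrophage phagosomes, was not analysed here. The WT group held 3 arrays from C57BL/6 mice of 6 weeks with the WT genotype. The CBS-KO group held 3 arrays from mice of the same strain and age that lacked CBS, cystathionine beta-synthase, an enzyme that condenses homocysteine with serine and can release hydrogen sulfide. The labels call the 3 arrays of a group biological replicates. They do not say whether CBS was lost in all tissues or how the T cells were purified.

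Cells take up iron mainly as transferrin bound to the transferrin receptor, reduce it in the endosome and pass it through a metal transporter to the cytosol. It is then used in mitochondria, stored in ferritin or exported by ferroportin. Iron regulatory proteins bind iron-responsive elements in several of these mRNAs, and when iron is scarce they stabilise transferrin receptor mRNA and block translation of ferritin and ferroportin. Developing red cells take up large amounts of iron for haem, macrophages that digest old red cells release it, and T cells raise the transferrin receptor when they divide. An array measures mRNA, so it shows neither the translational step of this control nor the iron content of the cells.

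Values are log2(intensity + 16), and differences are CBS-KO minus WT on that scale, with 3 arrays in each group throughout. A probe set was called when limma's p, adjusted by Benjamini and Hochberg over all 20856 probe sets tested, lay under 0.05. Array medians ran from 7.37 to 7.55. The samples carried the T cell markers of their label: Cd4, the co-receptor of these cells, stood at 13.34 in WT and 12.77 in CBS-KO, and the 10 CD4 T cell markers measured all lay at or above the 91.6th percentile of probe sets. The probe set of Cbs had 7.35 ± 0.15 in WT and 7.41 ± 0.20 in CBS-KO (SD, n = 3 each). It was dim in WT too, at the 47.9th percentile of probe sets by its mean over the arrays. Whether it detects Cbs mRNA in either group is not known. The sources used here do not say which part of the gene it covers. Y-linked Eif2s3y was at 9.41 and 9.19 in CBS-KO 1 and 2 and at most 4.90 on the other arrays, so sex and genotype cannot be fully told apart. In CBS-KO 3, the one array of its group without Y-linked signal, each of the 9 iron genes had its highest CBS-KO value, as did 38.8% of all tested probe sets.

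All 9 probe sets passed the filter on dim signal, and 4 of them were called, all higher in CBS-KO: Slc40a1, Tfrc, Steap3 and Slc25a37. Among all tested probe sets, 9.57% were called, 5.09% higher and 4.47% lower. The other 5, Slc11a2, Fth1, Ftl1, Ireb2 and Aco1, did not pass the adjusted threshold. At an unadjusted p under 0.05 there were 7 higher and 0 lower, against 13.6% higher and 17.3% lower of all tested probe sets. No member passed the filter through its CBS-KO arrays alone, since all 9 had a WT mean above the filter level of 6.987. In 7 of the 9, each CBS-KO array lay above each WT array, an arrangement seen in 15.0% of all tested probe sets. The median difference of the 9 was 1.0, against -0.05 over all tested probe sets. A two-sided exact permutation test on group means cannot give a p below 0.1 with 3 against 3 arrays, and it gave p = 0.1 for each of these 7.

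**Figure D1:**
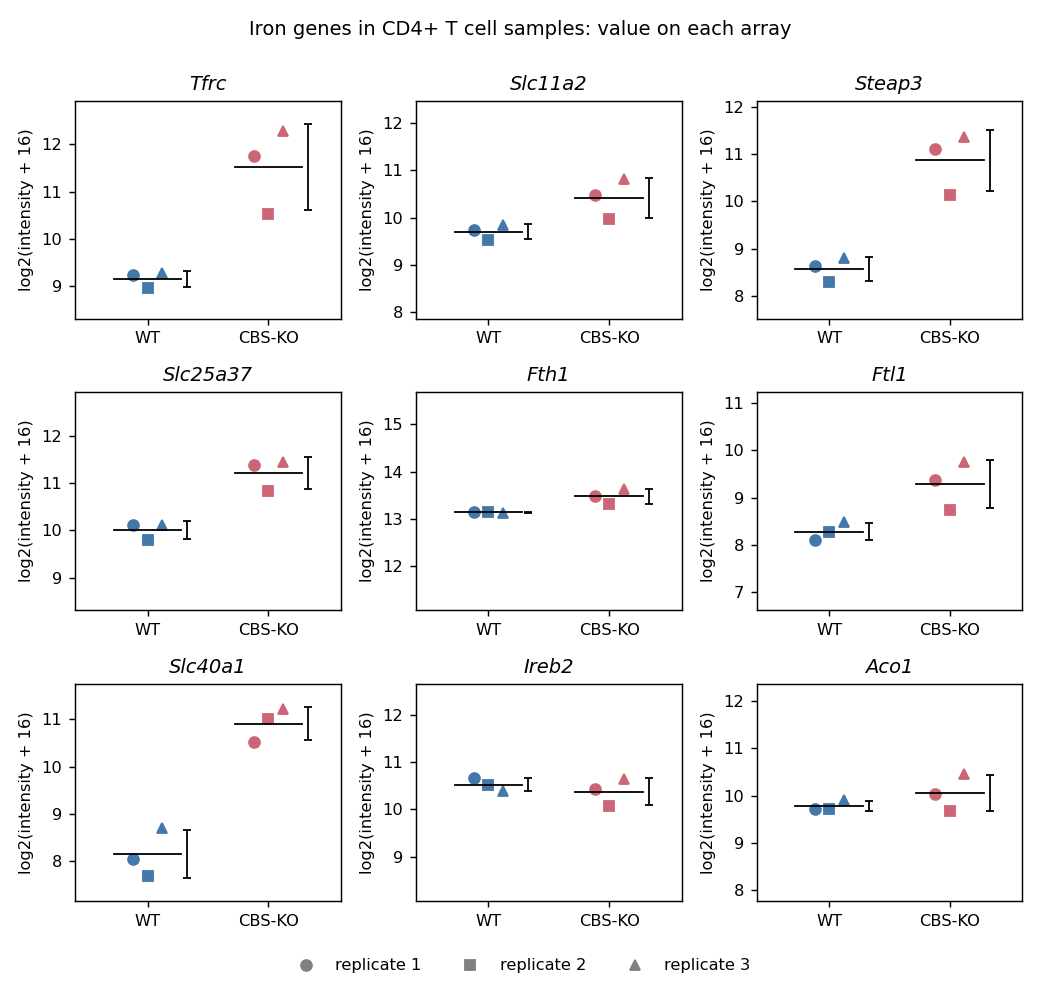
Log2(intensity + 16) of the 9 iron genes on each array, 1 panel per gene, with WT in blue and CBS-KO in red, a line at each group mean and a bar of 1 SD (n = 3). All panels span the same range of log2 units. Tfrc, Steap3, Slc25a37 and Slc40a1 separate the groups widely, Fth1 moves by 0.34, and the groups overlap for Ireb2 and Aco1.

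Of the genes of uptake through transferrin, Tfrc and Steap3 were called higher. Tfrc, the transferrin receptor that carries iron-loaded transferrin into the cell, had values of 9.24, 8.96 and 9.28 in WT 1 to 3 and of 11.76, 10.52 and 12.28 in CBS-KO 1 to 3. All CBS-KO arrays lay above the WT arrays, which were close to each other, while CBS-KO 2 stood well below its group. The difference was 2.36 (SE 0.42, 95% confidence interval 1.35 to 3.36, limma adjusted p = 0.0256), which is 5.12-fold. The SD was 0.91 in CBS-KO and 0.17 in WT.

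Steap3, the endosomal reductase that prepares transferrin-derived iron for transport, followed the same order of arrays. Its values were 8.64, 8.30 and 8.80 in WT and 11.11, 10.14 and 11.35 in CBS-KO, again with CBS-KO 2 lowest of its group. It rose by 2.29 (SE 0.32, interval 1.52 to 3.05, limma adjusted p = 0.0152), or 4.88-fold. Slc11a2, also called DMT1, the transporter that moves ferrous iron out of the endosome, had 9.75, 9.53 and 9.85 in WT and 10.49, 9.97 and 10.81 in CBS-KO. The groups did not overlap, but CBS-KO 2 lay only 0.25 above the WT mean. Its difference of 0.71 (interval 0.18 to 1.25) did not pass the threshold (limma adjusted p = 0.0877).

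The start regions of Tfrc and Steap3, the called genes of uptake through transferrin, are shown. RefSeq windows on GRCm38.p6 from 250 bases before to 50 after each annotated start were found for 7 of the 10 listed genes, and not for Slc11a2, Slc25a37 and Slc40a1. Both strands were searched for 6 short motifs: AGATAA (bound by GATA factors), its related form TGATAA (bound by the same family), ACGTG (the core of a hypoxia response element), TGACGT (cyclic AMP response core), TGACNNNGC (antioxidant response core) and GGAAGT (ETS factors). Tfrc has 2 overlapping windows, and 3 of the motifs lie in a stretch of 30 bases that both hold. It begins at -232 relative to the annotated start at position 32609122 and spans the other annotated start, with the last letter of GGAAGT shared with TGACGT. Capitals mark the motif letters.
Tfrc, chr16:32608890-32608919, plus strand: gtgtACGTGcggaaGGAAGTGACGTagatc
Steap3 has 4 annotated windows, each of which holds GGAAGT once on the plus strand of the gene, and the first also holds AGATAA on the opposite strand, read here as TTATCT.
Steap3 window 1, chr1:120271291-120271320, minus strand: catgggggtctaGGAAGTcagtggcaccag
Steap3 window 1, chr1:120271108-120271137, minus strand: gtccggagagtgTTATCTccctccagttat
Steap3 window 2, chr1:120270456-120270485, minus strand: ggccaagtctcaGGAAGTagagaaggagag
Steap3 window 3, chr1:120265497-120265526, minus strand: gtgggcagatcaGGAAGTgacaagacaggc
Steap3 window 4, chr1:120259031-120259060, minus strand: cctccccaaacaGGAAGTctcccgcagaat
Of all 32851 such windows, GGAAGT occurs in 23.8%, ACGTG in 19.6%, TGACNNNGC in 12.4%, AGATAA in 11.2%, TGATAA in 9.05% and TGACGT in 7.51%. None of the 6 letter strings is in the windows of Slc11a1, Fth1, Ftl1, Ireb2 and Aco1. These are matches of letters, and the arrays give no information on binding.

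The mRNA of one mitochondrial iron importer rose as well. Slc25a37, or mitoferrin-1, the iron importer of the inner mitochondrial membrane that serves haem synthesis in red cell precursors, had 10.12, 9.79 and 10.12 in WT and 11.37, 10.82 and 11.44 in CBS-KO. Each CBS-KO array exceeded each WT array by more than the range within WT. The increase was 1.20 (SE 0.19, interval 0.73 to 1.66, limma adjusted p = 0.0202), or 2.29-fold. Its widely expressed relative Slc25a28, mitoferrin-2, differed by -0.06 (interval -0.38 to 0.26, limma adjusted p = 0.814).

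The ferritin subunits, which form the iron storage shell, had positive differences of unequal size, neither past the threshold in its member probe set. Fth1, the heavy subunit with the ferroxidase site, was near the top of the array's range with 13.14, 13.16 and 13.13 in WT and 13.49, 13.32 and 13.63 in CBS-KO. The groups did not overlap, and the difference of 0.34 (interval 0.13 to 0.54, limma adjusted p = 0.0549) stood beside an SD of 0.01 in WT and 0.15 in CBS-KO. Ftl1, the light subunit, had 8.11, 8.27 and 8.48 in WT and 9.37, 8.74 and 9.75 in CBS-KO, without overlap, and a difference of 1.0 (interval 0.36 to 1.63, adjusted p = 0.0602). Another 3 probe sets list Ftl1 beside a pair of microRNA genes and were not members, since their signal cannot be given to 1 gene. Their differences were 0.31 (limma adjusted p = 0.0875), 0.66 (0.0305) and 0.59 (0.019). The probe sets at 0.66 and 0.59 were called higher and were far brighter than the member, with WT means of 11.69 and 12.37 against 8.29. In the brighter of these, 10563295, the CBS-KO arrays spread by an SD of only 0.07.

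The export gene had the largest difference among the 9. Slc40a1, ferroportin, the cell's iron exporter, had 8.06, 7.70 and 8.71 in WT and 10.52, 11.00 and 11.21 in CBS-KO. The groups lay far apart, and here CBS-KO 1 was lowest of its group, whereas CBS-KO 2 was lowest for the other 8 genes. Slc40a1 rose by 2.76 (SE 0.30, interval 2.05 to 3.46, limma adjusted p = 0.00879), which is 6.75-fold. The WT arrays varied more for this gene (SD 0.51) than the CBS-KO arrays (SD 0.35).

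The iron sensors did not pass the test. Ireb2, iron regulatory protein 2, which is degraded when iron is plentiful, had 10.65, 10.52 and 10.39 in WT and 10.42, 10.06 and 10.64 in CBS-KO. The groups overlapped, with a difference of -0.15 (interval -0.55 to 0.25, limma adjusted p = 0.606). Aco1, iron regulatory protein 1, which is a cytosolic aconitase when it carries an iron-sulfur cluster, had 9.71, 9.71 and 9.90 in WT and 10.04, 9.68 and 10.45 in CBS-KO. It overlapped too, with a difference of 0.29 (interval -0.20 to 0.77, adjusted p = 0.389). The intervals run from 0.685-fold to 1.19-fold for Ireb2 and from 0.87-fold to 1.71-fold for Aco1. Aco1 differed by 0.09 when CBS-KO 3 was left out and by 0.68 (limma adjusted p = 0.049) with Y-linked signal as a model term.

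Which of the 4 calls held depended on the array left out. Without WT 1 or without WT 2, 0 of the 9 passed in limma, although 7 and 6 had an unadjusted p under 0.05, and 0.446% and 0.35% of all tested probe sets were then called. Without WT 3, Slc40a1 and Steap3 passed, beside 3.22% of all tested probe sets. Without CBS-KO 1, Slc40a1 alone did, beside 0.796%, and without CBS-KO 3 the same 4 genes as with all arrays, beside 6.6%. Without CBS-KO 2, 7 passed, when 30.8% of all tested probe sets were called. Tfrc then differed by 2.86 (adjusted p = 0.00178), against an adjusted p of 0.109, 0.117 and 0.071 when WT 1, WT 2 or WT 3 was left out and of 0.105 when CBS-KO 1 was. Slc40a1 came closest to keeping its call, with 0.0551 without WT 1 and 0.05002 without WT 2. In each of these fits Tfrc differed by 1.97 to 2.86 and Slc40a1 by 2.53 to 3.03. With Y-linked signal as a model term, where the estimate rests on CBS-KO 3, the differences were 3.12 for Tfrc, 2.77 for Steap3, 1.42 for Slc25a37 and 3.05 for Slc40a1, and 8 of the 9 passed while 23.9% of all tested probe sets did.

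**Figure D2:**
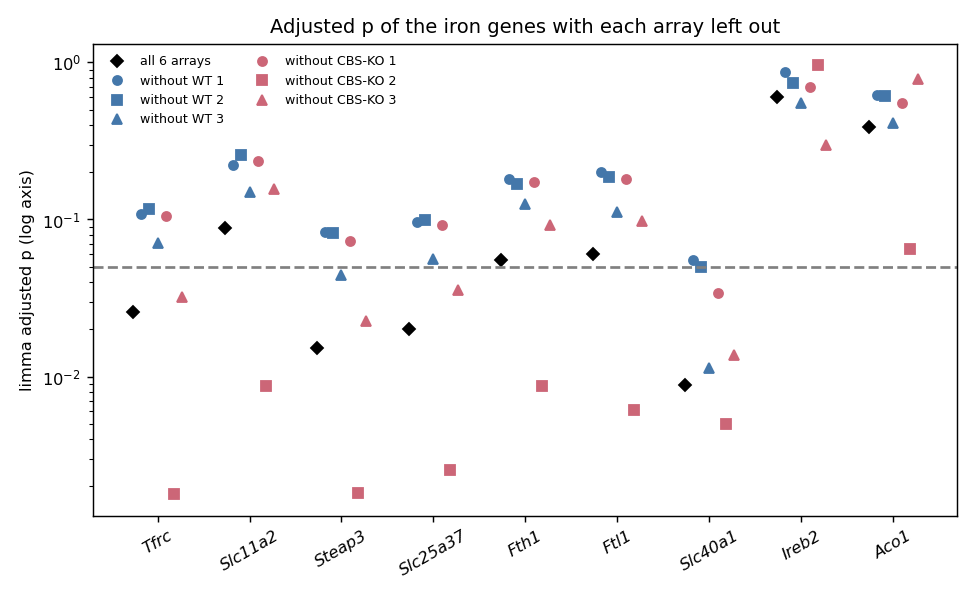
Limma adjusted p (log axis) of the 9 iron genes with all 6 arrays (black) and with each array left out, WT arrays in blue and CBS-KO arrays in red, with a dashed line at 0.05. Without WT 1 or WT 2 no gene lies below the line, and without CBS-KO 2, 7 do.

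Markers of several other cell types were also higher in CBS-KO. Over all tested probe sets, 5.09% were called higher and 4.47% lower. Some of these markers passed the filter only through their CBS-KO arrays, with a WT mean under the filter level. That part of each such count is fixed by the filter. Of 14 erythroid precursor genes measured, among them Alas2 (3.0), Gata1 (2.51) and Klf1 (2.76), all 14 were called higher, 1 of them (Epb42) with a WT mean under the filter level, and their mean level was 7.48 to 8.08 on the WT arrays and 10.08 to 11.51 on the CBS-KO arrays. Relative to WT the list stood at 3.34, 2.26 and 3.69 in CBS-KO 1 to 3, lowest in CBS-KO 2. Alas2 was an exception at 2.83, 2.96 and 3.21, lowest in CBS-KO 1 and highest in CBS-KO 3, the order of Slc40a1. Each other gene of the list was lowest in CBS-KO 2. Tfrc stood at 2.59, 1.36 and 3.12, Steap3 at 2.52, 1.56 and 2.77, and Slc25a37 at 1.36, 0.81 and 1.42. Of 17 genes of DNA replication and mitosis, 8 were called higher, and that list stood at 1.66, 0.58 and 2.01, with a mean level of 9.77 to 10.20 in WT and 10.59 to 12.01 in CBS-KO. In 40.2% of all tested probe sets CBS-KO 2 was lowest of its group, against 8 of these 9. The part of red cell precursors or dividing cells in the Tfrc, Steap3 and Slc25a37 differences was not tested, and in whole samples more cells of a type cannot be told apart from more RNA per cell.

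Slc40a1 differed from the other 8 iron genes in which CBS-KO array was lowest, but like them was highest in CBS-KO 3. The share of all tested probe sets lowest in CBS-KO 1 was not counted. Slc40a1 stood at 2.37, 2.85 and 3.05 above WT in CBS-KO 1 to 3. Genes of the red pulp macrophage, the splenic cell that recycles iron from red cells, stood at 1.37, 2.20 and 1.96. They were likewise lowest in CBS-KO 1 but highest in CBS-KO 2. Their mean levels were 7.61 to 8.32 in WT and 9.22 to 10.06 in CBS-KO. Of 11 measured, 10 were tested and 9 called higher, including Spic (2.15), the transcription factor that macrophage type needs, and Vcam1 (2.57), while Timd4 was not (0.08) and Cd163 lay under the filter. Spic and Clec4n had WT means under the filter level, and of the other 8 tested 7 were called higher. The wider monocyte and macrophage list had 10 of 11 tested genes called higher, 1 of them (Cd14) with a WT mean under the filter level. It stood at 1.89, 2.46 and 1.98. Its genes were split, with Lyz2, Spi1, Cd68, Itgam and Ccr2 lowest in CBS-KO 3 and the others in CBS-KO 1. The neutrophil list had 12 of 14 called higher, at 3.43, 3.18 and 3.08, in another order of arrays. In that list 5 genes, S100a8, S100a9, Ly6g, Mmp8 and Cxcr2, had WT means under the filter level, and of the other 9 tested 7 were called higher. The B cell list had 1 of 7 genes called (Ighm, 1.53) and a median of -0.23, and stood at -0.16, 0.97 and -0.77, highest in CBS-KO 2. The CD4 T cell list had 4 of 10 called lower, at -0.65, -0.34 and -1.05, with a median of -0.67. At an unadjusted p under 0.05 in limma 9 of these 10 were lower, against 17.3% of all tested probe sets. Whether macrophage RNA accounts for the Slc40a1 difference was not tested.

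**Figure D3:**
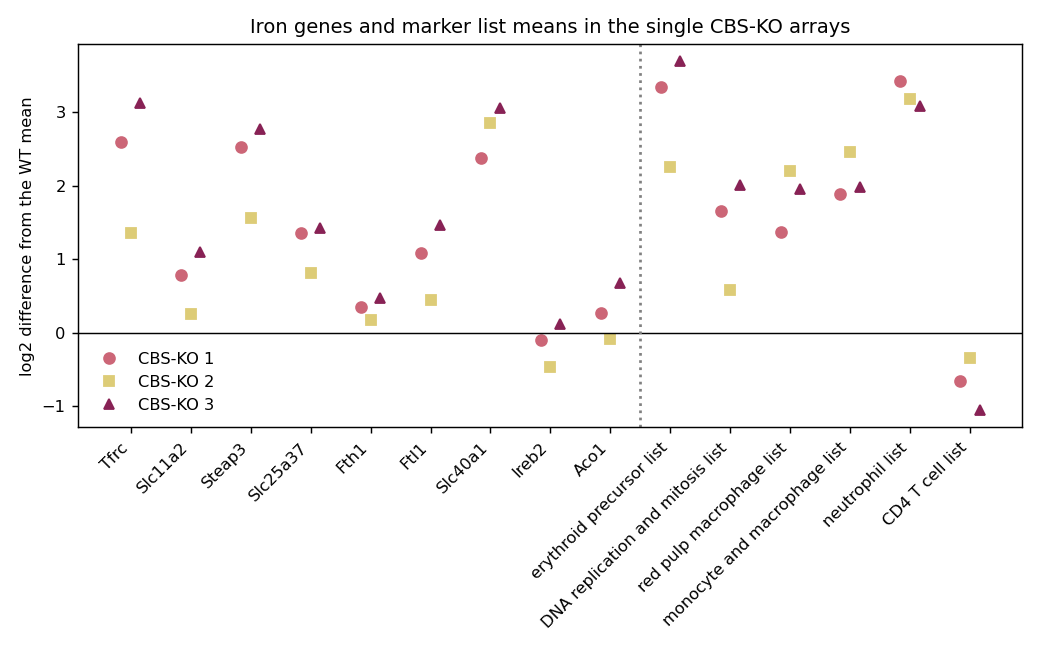
Log2 difference of each CBS-KO array from the WT mean, for the 9 iron genes (left of the dotted line) and for the means of 6 marker lists (right). Tfrc, Steap3 and Slc25a37 are lowest in CBS-KO 2, as are the means of the erythroid and the replication lists. Slc40a1 is lowest in CBS-KO 1, as are the means of the red pulp macrophage and the monocyte lists. The monocyte mean is close in CBS-KO 1 (1.89) and CBS-KO 3 (1.98), and several genes of that list are lowest in CBS-KO 3.

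Across the 6 arrays, Pearson's r was 0.99 between Tfrc and Steap3, 0.99 between Tfrc and Slc25a37 and 0.90 between Tfrc and Slc40a1. Tfrc also had 0.99 with Fth1 and 0.98 with Ftl1. Slc40a1 had 0.94 with Steap3 and 0.93 with Slc25a37. Ireb2 stood apart, at 0.00 with Tfrc and -0.38 with Slc40a1. All pairs share the same arrays and the same gap between groups, so these are descriptions. The genes whose pattern was most like that of Tfrc were Map3k20, Eef2k and Srm, the spermidine synthase gene, all with r at or above 0.9996. Those most like Slc40a1 were Ergic1 (r = 0.998), Hmox1 (0.995), the haem-degrading enzyme that frees iron, and Dram1 (0.993). With 6 arrays such values are common: among 12775 other genes, 1209 had r above 0.95 with Tfrc and 282 with Slc40a1.

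The wider iron pathway contained further increases. Of 40 other genes of iron transport, storage and regulation, 28 were tested, and 11 were called higher and 0 lower. Over all tested probe sets, 5.09% were called higher and 4.47% lower. At an unadjusted p under 0.05 in limma 14 were higher and 1 lower, against 13.6% and 17.3% of all tested probe sets. The median difference of the 28 was 0.28, against -0.01 over the brightest tested probe sets of all named genes. Lcn2, the siderophore-binding lipocalin (5.33, SE 0.19), and Ltf, lactoferrin (3.82, SE 0.39), are also in the neutrophil list, and Trf, transferrin itself (2.29, SE 0.29), and Hmox1 (2.21, SE 0.29) in the red pulp macrophage list. Slc48a1, which carries haem out of the phagolysosome, rose by 0.90 (SE 0.13), and Lrp1, a receptor that takes up haem bound to haemopexin, by 1.71 (SE 0.27). The other 5 were Tfr2, the second transferrin receptor (2.58), Abcb10, which works with mitoferrin-1 (2.57), Slc39a8, a zinc and iron importer (1.72), Erfe, the erythroid hormone that lowers hepcidin (0.79), and Slc25a39 (0.77).

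These, too, differed in which array was lowest. Tfr2 stood at 3.01, 1.54 and 3.19 above WT in CBS-KO 1 to 3 and Abcb10 at 2.78, 1.54 and 3.40, lowest in CBS-KO 2 like Tfrc. Hmox1 stood at 1.68, 2.46 and 2.48 and Trf at 2.05, 2.61 and 2.22. Both were lowest in CBS-KO 1 like Slc40a1, although Trf was highest in CBS-KO 2. Lcn2 (5.53, 5.33 and 5.11) and Lrp1 (1.5, 2.25 and 1.37) followed neither order and were lowest in CBS-KO 3. The other called genes of this list, Ltf (4.48, 2.95 and 4.02), Slc48a1, Slc39a8, Erfe and Slc25a39, were lowest in CBS-KO 2. Among the genes of this list that did not pass, Ncoa4, the receptor that delivers ferritin for breakdown, differed by 0.13 (interval -0.18 to 0.43), and the iron chaperone genes Pcbp1 by 0.36 (interval 0.05 to 0.67, adjusted p = 0.122) and Pcbp2 by 0.02 (interval -0.12 to 0.16). These were chosen after their values were seen. Fbxl5, which marks Ireb2 protein for degradation, differed by -0.28 (interval -0.68 to 0.12).

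**Figure D4:**
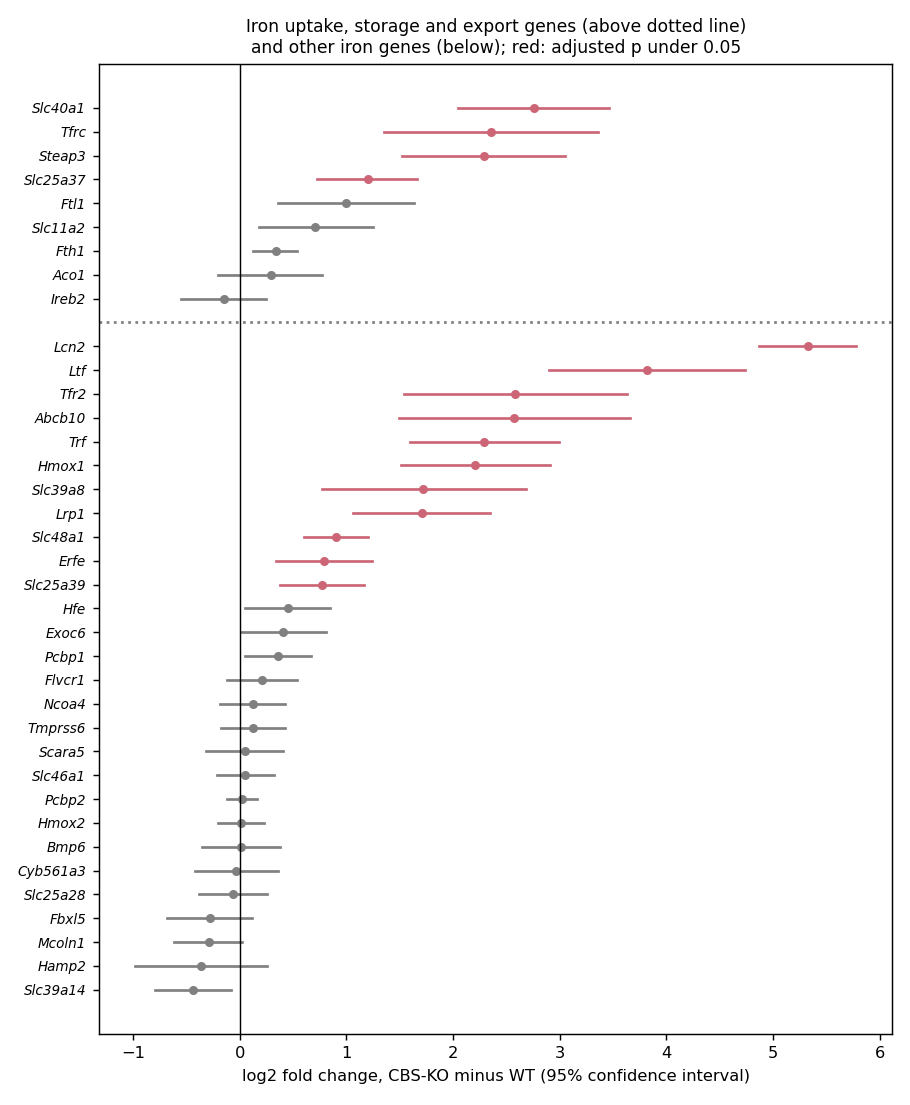
Log2 fold change (CBS-KO minus WT) with its 95% confidence interval, not adjusted for the number of tests, for the 9 iron genes (above the dotted line) and 28 other tested iron genes (below), with genes past an adjusted p of 0.05 in red. In the upper block 4 genes are red, led by Slc40a1 at 2.76, and 11 in the lower block, led by Lcn2 at 5.33.

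Iron-sulfur cluster assembly, the main mitochondrial use of iron besides haem, gave 1 call among 22 genes tested, or 4.55%, near the 5.09% called higher over all tested probe sets. This was Ciapin1, a carrier of electrons for cytosolic cluster assembly, which rose by 0.84 (SE 0.17, limma adjusted p = 0.0326). The median of the 22 was 0.31. At an unadjusted p under 0.05 in limma 7 were higher and 1 lower, against 13.6% and 17.3% of all tested probe sets. Glrx5, a mitochondrial glutaredoxin needed for haem synthesis in red cell precursors, differed by 1.10 (adjusted p = 0.066) and the chaperone gene Hspa9 by 0.70 (0.0601), neither past the threshold. A further 6 genes were listed for an iron-responsive element reported in their mRNA, which was not checked here for mouse. Of these, Alas2 (3.0, SE 0.18), also in the erythroid list, and Cdc42bpa (1.93, SE 0.43) were called higher and none lower. At an unadjusted p under 0.05 in limma there were 3 higher and 1 lower. Cdc42bpa had a mean of 6.50 in WT and 8.43 in CBS-KO and passed the filter only through CBS-KO. Epas1, the hypoxia-inducible factor HIF-2 alpha, differed by -0.67 (interval -1.24 to -0.10, adjusted p = 0.116). Over these 3 lists, 14 of 56 genes were called with all arrays, beside 9.57% of all tested probe sets. Leaving out WT 1 or WT 2 left 2 calls, beside 0.446% and 0.35% of all tested probe sets. Leaving out WT 3 left 7, beside 3.22%. The count was 4 when CBS-KO 1 was left out, beside 0.796%. It was 32 in the absence of CBS-KO 2, beside 30.8%, and 10 in that of CBS-KO 3, beside 6.6%.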

How the data were processed

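The deposited table holds 1 value for each probe set on each array, taken here as linear intensity from the range of the values, from biotinylated cRNA on Affymetrix arrays per the labels' protocols. The sources used here do not state the scale or how background, normalization, probe set summary and centring were handled. Gene names came from the platform's gene table, in which 21640 probe sets name 1 gene, 1321 several and 11799 none. The test kept probe sets with a mean log2(intensity + 16) above the 40th percentile (6.987), 20856 in all. Groups were compared with limma 3.58.1 in R 4.3.3 (two-sided, trended eBayes, no block), with p adjusted over all of them. Other lists use the brightest tested probe set of each gene. Named are all members, up to 6 called genes of each other iron list by smallest p and the 3 genes most correlated with Tfrc and Slc40a1; further genes of those lists were named after their values were seen. Members and lists were chosen with earlier results of these data known. Alternatives are given in the closing section. The model was run on simulated data with independent noise of equal spread in both groups. In the real arrays the median SD was 0.112 in WT and 0.214 in CBS-KO, so the simulation does not cover that difference. With 3 arrays per group, their number limits precision. Figures used matplotlib 3.10.9 in Python 3.11.15.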

Additional observations from a re-analysis of the deposited data

How the results depend on the processing

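Tfrc, Steap3, Slc25a37 and Slc40a1 kept their direction and their call with arrays quantile-normalized or brought to 1 median, with the filter dropped or raised to the 60th percentile, with offsets of 1 and 64, with untrended or robust eBayes, 1 probe set per gene and the replicate number as a replicate block. Slc11a2, Fth1, Ftl1 and Aco1 kept a positive difference in all alternatives run, while Ireb2 turned to 0.12 with Y-linked signal as a model term and to 0.01 without CBS-KO 2, with -0.28 as its lowest value (without CBS-KO 3). Fth1 passed with the filter at the 60th percentile (adjusted p = 0.0451) and with 1 probe set per gene (0.0433), and Ftl1 in the latter (0.045). With no filter, 1126 of all probe sets and 9 of the other iron genes were called, against 1995 and 14. With Y-linked signal as a model term the counts were 4976 of all probe sets, 8 of the 9 iron genes and 27 of the others. With array weights they were 13534, 8 and 39, in a fit that did not converge and gave CBS-KO 1 a weight of 147.27. Leaving out 1 array at a time gave 73 to 6427 of all probe sets, 0 to 7 of the 9 and 2 to 32 of the others. Replicate numbers are shared by the groups, but deviations of same-numbered arrays correlated at only 0.063, 0.158 and 0.108, so no pairing was assumed, although each of the 6 arrays correlated best with its own number. With the replicate block, 2093 of all probe sets, 4 of the 9 and 15 of the others were called. Signal over background is not known, which limits the folds of dim genes.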

Other observations

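Of the 40 other iron genes, 12 lay below the filter and were not tested. Steap4, a metalloreductase, had mean values of 6.47 in WT and 7.21 in CBS-KO. The latter came from CBS-KO 2 at 8.37, with 6.60 in CBS-KO 1 and 6.67 in CBS-KO 3. Cd163, the macrophage receptor for haemoglobin bound to haptoglobin, had means of 6.40 and 7.14. Hamp, the gene of the hepatic iron hormone hepcidin, had 5.58 and 5.55, Cp, the plasma ferroxidase ceruloplasmin, 6.19 and 6.22, and Heph, the gut ferroxidase, 6.02 and 5.95. Slc39a14, a zinc and iron importer related to Slc39a8, had the lowest difference of the 28 tested genes in the list of iron transport, storage and regulation, at -0.44 (interval -0.79 to -0.08, limma adjusted p = 0.103). Its CBS-KO arrays (8.32, 8.56 and 8.10) all lay below its WT arrays (8.74, 8.82 and 8.74), an arrangement seen in 21.7% of all tested probe sets.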
